A study of Mus musculus with 9 samples.

Results

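Dcx, Dlx1, Dlx2, Sox4, Sox11 and Cd24a mark the young neurons that keep entering the adult mouse olfactory bulb. They were followed across the bulbs of 9 mice taken without odor, at the end of an odor exposure, or later. Rows were taken from the deposited expression table wherever its symbol field named 1 of the 6 genes. This gave 5 genes of 27497 rows in all, each matched to a single Ensembl identifier: Dcx (ENSMUSG00000031285), Dlx1 (ENSMUSG00000041911), Dlx2 (ENSMUSG00000023391), Sox11 (ENSMUSG00000063632) and Cd24a (ENSMUSG00000047139). Sox4 was not analysed here. All 5 passed the filter on low values (a 9-mouse mean no lower than 1 RPKM), which left 12780 genes for the tests. RPKM is a read count divided by gene length and by library depth.

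The animals were C57/BL6 adults of 6 to 8 weeks or older, with no transgene named in the labels, and 3 separate mice formed each group. The clean air group breathed air filtered over activated carbon. The 30 min group was taken at the end of 30 min with a cocktail of odorants. The 120 min group had the same 30 min of odorants followed by 90 min of clean air. Polyadenylated RNA of the dissected olfactory bulb, the first relay of smell in the brain, was sequenced from paired ends, and the series asks which transcripts respond to neuronal activity in the living animal.

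New bulb neurons are born in the subventricular zone of the lateral ventricle. They migrate to the bulb as chains of neuroblasts along the rostral migratory stream, then disperse and mature into granule and periglomerular interneurons. Dcx encodes doublecortin, a protein that stabilises microtubules in migrating neurons and is lost as they mature. Dlx1 and Dlx2 are homeodomain transcription factors that specify forebrain GABAergic neurons, and Dlx expression is known to continue in differentiated bulb interneurons. Sox4 and Sox11, with Sox12, form the SoxC group of transcription factors, which switch on genes of early neuronal differentiation. Cd24a is a glycoprotein anchored to the surface of neuroblasts, and is also made by ependymal cells and some blood cells.

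The sequences before the annotated starts of Dcx, Dlx2 and Sox11 are shown because Dcx differed most between the groups, Sox11 was the steadiest member and Dlx2 stands for the abundant Dlx pair, and their base composition differs. They come from RefSeq (GRCm38.p6), 5′ to 3′ on the strand of the gene, and the part that lies outside every annotated transcript of the gene is printed. Windows of 250 bases before the start were available for 4 of the 5 members and none was matched for Cd24a. The window of Dlx1 lay inside the annotated gene and is not printed. Capitals mark matches, on either strand, to 8 motifs: the TATA box (TATAAA), the CCAAT box, the GC box (GGGCGG), the CRE core (TGACG), the AP-1 site (TGANTCA), a homeodomain core (TAATTA), a SOX core (ACAAAG) and the CArG box. None of these overlapped another match in the bases printed.
Dcx, chrX:143933397-143933469, minus strand: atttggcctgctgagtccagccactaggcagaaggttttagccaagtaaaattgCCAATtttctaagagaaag
Dlx2, chr2:71546755-71547004, minus strand: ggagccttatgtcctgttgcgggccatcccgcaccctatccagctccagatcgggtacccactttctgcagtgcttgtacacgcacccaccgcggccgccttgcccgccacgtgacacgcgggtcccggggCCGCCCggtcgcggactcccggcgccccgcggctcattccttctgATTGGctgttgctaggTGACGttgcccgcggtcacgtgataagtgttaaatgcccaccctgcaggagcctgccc
Sox11, chr12:27342719-27342968, minus strand: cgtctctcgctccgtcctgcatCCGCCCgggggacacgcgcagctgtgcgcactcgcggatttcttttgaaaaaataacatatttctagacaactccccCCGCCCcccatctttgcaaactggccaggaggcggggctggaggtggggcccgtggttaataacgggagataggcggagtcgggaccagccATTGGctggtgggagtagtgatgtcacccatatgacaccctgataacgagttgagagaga

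The window of Dcx was poor in G and C and the windows of the transcription factor genes were rich in them. Of its 250 bases, 41.6% were G or C and 3 were CpG dinucleotides, against medians of 52.4% and 6 over 32851 windows. The window of Dlx2 had 66.4% G or C and 24 CpG, that of Dlx1 68.0% and 22, and that of Sox11 58.0% and 17. Besides the CCAAT match printed at 196 bases before the start, the Dcx window held TATAAA (in 12.4% of all windows) and TAATTA (in 4.84%) nearer the start. CCAAT was found in 33.8% of all windows. The Dlx2 window held a GC box (GGGCGG, in 32.7% of all windows) read on the opposite strand, a CCAAT box on the opposite strand and the CRE core TGACG (in 17.8%). The Sox11 window held 2 GC boxes and 1 CCAAT box, all on the opposite strand. The AP-1 site TGANTCA (in 6.75% of all windows) and the CArG box (in 1.47%), both known from promoters of activity-induced genes, were in none of these windows, which says only that those letters are not there. ACAAAG, the core that SOX proteins bind, was in 16.5% of all windows and in none of these, apart from a second annotated start of Dcx that is not shown.

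Of 8 markers of mature bulb interneurons, 7 had rows, of which 6 passed the filter and 1 fell under it. All 6 markers of mitral and tufted cells passed. Among these, Gad1 was at 280 to 521 RPKM, Th at 157 to 262 and Eomes at 46.5 to 81.7. Of markers of cortical excitatory neurons, Neurod6 was at 0.36 to 1.09 RPKM, and Tbr1 and Slc17a6, which bulb output neurons make too, were at 4.20 to 6.70 and 2.96 to 5.39 RPKM. All 5 of 5 odor-induced early genes (Fos, Arc, Egr1, Npas4 and Junb) were called higher at 30 min than in clean air and 5 of 5 lower at 120 min than at 30 min (limma, adjusted p under 0.05). Their levels summed to 68.9 to 168 RPKM in the controls, to 935.5 to 1105 at 30 min and to 157 to 160 at 120 min. Library depth, worked out from the smallest steps between the values of short RNAs, was 7.16 to 29.9 M counts (M, mega). Summed red blood cell markers varied between mice (42.9 to 162 RPKM in the controls, 175 to 210 at 30 min, 52.3 to 197 at 120 min), and their part in the values below was not tested. These are whole bulbs, so fewer cells of a type and less RNA per cell cannot be told apart.

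The 5 genes spanned a wide range of levels, with the fate factors on top. Per length, Dlx1 averaged 144 RPKM over the 9 mice, above 97.2% of tested genes. Dlx2 averaged 64.5 RPKM (91.5%), Dcx 20.4 (70.5%), Cd24a 5.51 (33.6%) and Sox11 4.66 (29.4%). The first 3 steps of that order held in 9 of 9 mice, with no overlap between the ranges of neighbours. Dlx1 was 1.87 to 2.73 times Dlx2 within a mouse, Dlx2 was 2.05 to 7.25 times Dcx, and Dcx was 1.97 to 5.37 times Cd24a. Cd24a and Sox11, at the low end, overlapped, and Cd24a was the higher of them in 7 of 9 mice. Per kilobase, counts were 955 to 5145 for Dlx1, 44.8 to 203 for Cd24a and 33.8 to 134 for Sox11. The count behind a whole gene also depends on its length, and the longest transcript is 1816 nt for Cd24a and 8311 nt for Sox11.

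**Figure D1:**
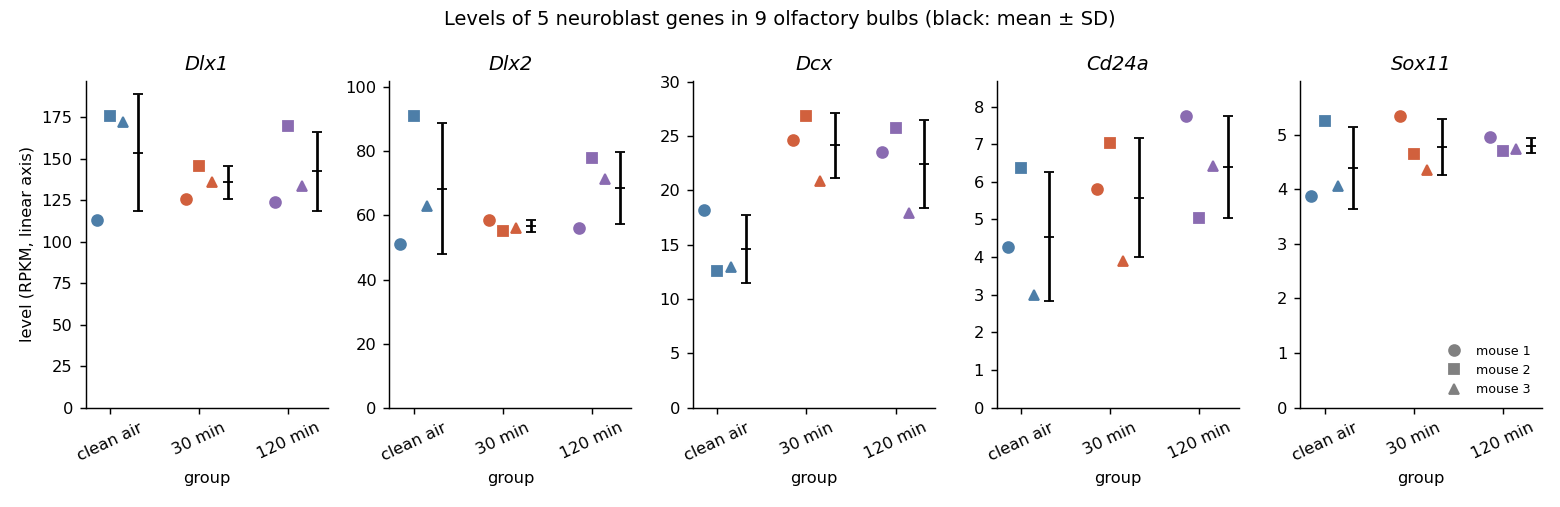
Level of each gene in RPKM (linear axes starting at 0) in every mouse, with marker shape for mouse number and black bars for the mean ± SD of 3 mice. For Dcx all 3 mice at 30 min (20.88 to 26.84) lie above all 3 in clean air (12.57 to 18.18), and for the other genes every pair of groups overlaps.

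Dcx was the member that differed most between the groups, and the difference did not pass adjustment over all genes. In clean air its level was 18.18, 12.57 and 12.96 RPKM in mice 1, 2 and 3, a mean of 14.6 ± 3.13 (SD, n = 3). At 30 min it was 24.67, 26.84 and 20.88 RPKM (24.1 ± 3.02). At 120 min it was 23.55, 25.74 and 17.93 RPKM (22.4 ± 4.03). Every mouse at 30 min was above every clean air mouse, while mouse 3 at 120 min lay just under clean air mouse 1.

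On the log2(RPKM + 0.5) scale the mean of Dcx was 0.72 ± 0.20 (SE) higher at 30 min than in clean air, 1.65-fold, with a 95% interval of 0.28 to 1.16. Its limma adjusted p was 0.731. At 120 min it was 0.61 ± 0.20 higher than in clean air, 1.52-fold (0.17 to 1.05, limma adjusted p = 0.368). Between 120 and 30 min the difference was -0.11 (-0.55 to 0.33, limma adjusted p = 0.999). The 2 comparisons with clean air share the same 3 control mice, and the F test over the 3 groups gave a limma adjusted p of 0.601. An unadjusted p under 0.05 was found for 5.92% of all tested genes at 30 min against clean air, and groups of 3 mice without overlap for 11.4%.

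Transcript length moved with the same comparison, and the longest annotated transcript of Dcx (GENCODE M21, used by identifier) is 9074 nt. Of the 732 tested genes with a transcript over 8 kb, 82.4% had a positive difference at 30 min against clean air, with a median of 0.23 on the log2 scale. The 661 genes under 1 kb had a median of -0.04. At 120 min against clean air these medians were 0.30 and -0.14. Within the genes over 8 kb, the difference of Dcx stood at percentile 96.0 at 30 min and 83.9 at 120 min.

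The shift of long transcripts was also seen mouse by mouse. The median deviation of genes over 8 kb from their mean over all mice was -0.07, -0.29 and -0.17 on the log2 scale in the 3 clean air mice, in order of number. At 30 min the values were 0.07, 0.13 and -0.01 and at 120 min 0.12, 0.22 and 0.02, and Dcx was likewise lowest in clean air mice 2 and 3 and highest in the mice numbered 2 after odor. With each mouse's trend with transcript length removed, an alternative chosen after seeing the data, Dcx was 0.50 higher at 30 min than in clean air (limma adjusted p = 0.865). At 120 min it was then 0.34 higher (limma adjusted p = 0.671). The unadjusted limma p of Dcx was then 0.0109 at 30 min and 0.0606 at 120 min, and the part of length in the difference was not tested further.

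**Figure D2:**
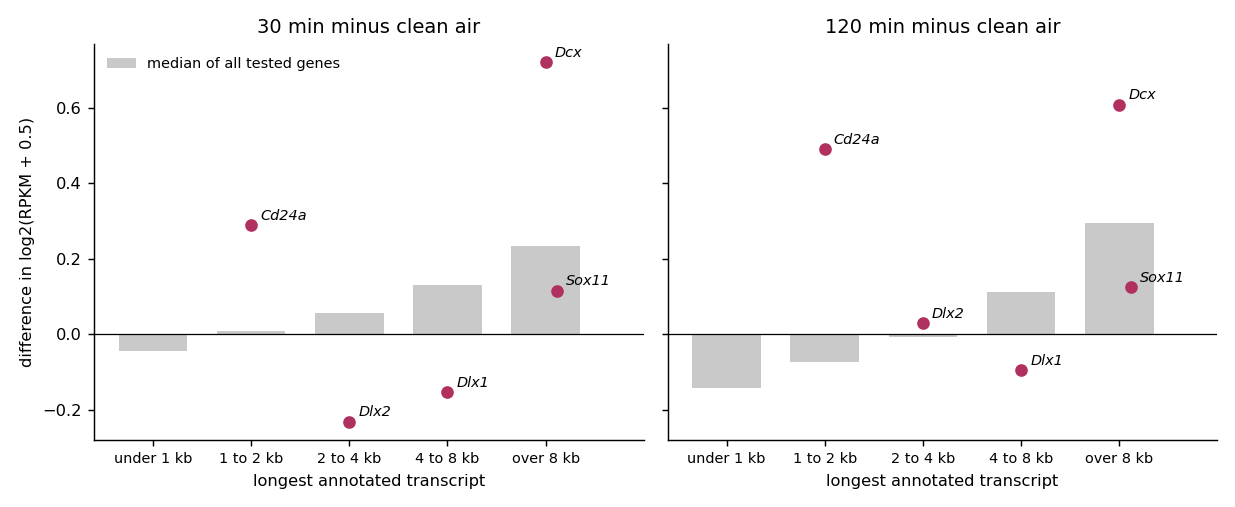
Difference in log2(RPKM + 0.5) against clean air at 30 min (left) and 120 min (right) by the longest annotated transcript. Grey bars are medians of all tested genes in each length class and red points are the 5 members: Dcx, over 8 kb, lies above its bar in both panels, and Sox11, in the same class, lies below it.

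Dlx1 and Dlx2, neighbouring genes that share regulatory DNA, showed no difference beyond the spread of the controls. Dlx1 measured 113.22, 175.86 and 172.15 RPKM in clean air, a mean of 154 ± 35.1 (SD, n = 3). It measured 125.73, 145.82 and 135.84 RPKM at 30 min (136 ± 10.05) and 124.13, 169.63 and 133.52 RPKM at 120 min (142 ± 24.0). Clean air mouse 1 was the lowest and clean air mouse 2 the highest of all 9, so the spread of the controls covered both exposed groups. The difference was -0.15 ± 0.20 at 30 min against clean air (95% interval -0.60 to 0.29, limma adjusted p = 0.899). At 120 min against clean air it was -0.10 ± 0.20 (-0.54 to 0.35, limma adjusted p = 0.919).

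Dlx2 measured 51.2, 91.07 and 62.97 RPKM in clean air (68.4 ± 20.5). At 30 min it measured 58.65, 55.03 and 56.08 RPKM (56.6 ± 1.86), and at 120 min 56.11, 78.1 and 71.28 RPKM (68.5 ± 11.3). The 3 mice at 30 min were close together and lay inside the range of the controls. The difference was -0.23 ± 0.21 at 30 min against clean air (-0.70 to 0.24, limma adjusted p = 0.864) and 0.03 ± 0.21 at 120 min (-0.44 to 0.50, limma adjusted p = 0.981). These intervals reach down to -0.60 and -0.70 at 30 min, so they do not show that Dlx1 and Dlx2 stayed constant. Exons of Dlx1 overlap the antisense gene Dlx1as in GENCODE, and 7.43% of the 36-base words of its longest transcript also occur in Dlx1as. Whether counting used strand is not given, so reads of the pair cannot be told apart, whereas Dlx2 shared no such word with another gene.

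Sox11 was low and the steadiest of the members. It measured 3.87, 5.25 and 4.06 RPKM in the controls (4.39 ± 0.748), 5.34, 4.64 and 4.35 RPKM at 30 min (4.78 ± 0.509) and 4.96, 4.7 and 4.73 RPKM at 120 min (4.80 ± 0.142). All 9 values lay between 3.87 and 5.34 RPKM and the 3 groups overlapped. Its residual SD on the log2 scale, 0.15, was higher than that of only 8.98% of tested genes. The difference was 0.12 ± 0.18 at 30 min against clean air (-0.29 to 0.52, limma adjusted p = 0.915). At 120 min it was 0.12 ± 0.18 (-0.28 to 0.53, limma adjusted p = 0.879). The longest transcript of Sox11 is 8311 nt, and its differences stood at percentiles 29.5 and 27.3 of the genes over 8 kb. With the trend with length removed they were -0.09 and -0.12, of the opposite sign.

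Sox12, the other SoxC gene with a value, had negative differences. It averaged 21.8 ± 4.44 RPKM in clean air, 16.7 ± 1.55 at 30 min and 15.1 ± 0.2203 at 120 min. Its difference was -0.50 at 120 min against clean air, where the groups did not overlap (limma adjusted p = 0.402), and -0.36 at 30 min (limma adjusted p = 0.829). With the trend with length removed these were -0.56 and -0.45, of the same sign as those of Sox11 in that fit. The difference between the 2 genes was not tested.

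Cd24a varied most from mouse to mouse. It measured 4.27, 6.37 and 2.98 RPKM in the controls (4.54 ± 1.71), 5.8, 7.03 and 3.89 RPKM at 30 min (5.57 ± 1.58) and 7.75, 5.04 and 6.42 RPKM at 120 min (6.40 ± 1.36). The means stood in the order of the groups, but all 3 groups overlapped. Its residual SD of 0.40 was above that of 77.5% of tested genes. The difference was 0.29 ± 0.29 at 30 min against clean air (-0.35 to 0.93, limma adjusted p = 0.872). At 120 min it was 0.49 ± 0.29 (-0.15 to 1.13, limma adjusted p = 0.637). Of 4 ependymal markers, Foxj1 was at 5.01 to 9.44 RPKM and Rarres2 at 6.10 to 13.42, while Ccdc153 (0 to 0.60) and Tmem212 (0 to 0.39) were at 0 in most mice. The 4 summed to 15.1 to 19.7 RPKM in the controls, 14.3 to 19.7 at 30 min and 11.1 to 16.2 at 120 min. The part of ependymal cells in the level of Cd24a was not tested. Of the 36-base words in the longest Cd24a transcript, 6.18% also occur in other genes, mainly Gm6212. What this does to the level of Cd24a was not tested.

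No member was called in any comparison, and the share of all genes called was small as well. At an adjusted p under 0.05, limma called 0 of 5 members at 30 min against clean air, where it called 0.141% of all genes. It called 0 of 5 at 120 min against clean air (0.0861% of all genes), 0 of 5 at 120 against 30 min (0.0782%) and 0 of 5 over the 3 groups (0.164%). An unadjusted p under 0.05 was reached by 1 of 5, Dcx, at 30 min against clean air. The same was true at 120 min against clean air (9.57% of all genes) and over the 3 groups (6.64%), and 0 of 5 reached it at 120 against 30 min (3.36%). Groups without overlap were found for Dcx at 30 min against clean air, and for 0 of 5 at 120 min against clean air (13.1% of all genes) and at 120 against 30 min (10.6%). Between 120 and 30 min the other differences were 0.06 for Dlx1, 0.26 for Dlx2, 0.01 for Sox11 and 0.20 for Cd24a, each with a limma adjusted p of 0.999.

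Differences were positive for 3 of 5 members at 30 min against clean air, with a median of 0.12 on the log2 scale, and for 4 of 5 at 120 min, with a median of 0.12. Over all tested genes 61.8% and 53.9% were positive, with medians of 0.08 and 0.03. The members did not share a direction at 30 min, since both Dlx genes lay below 0 and Dcx, Cd24a and Sox11 above it.

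**Figure D3:**
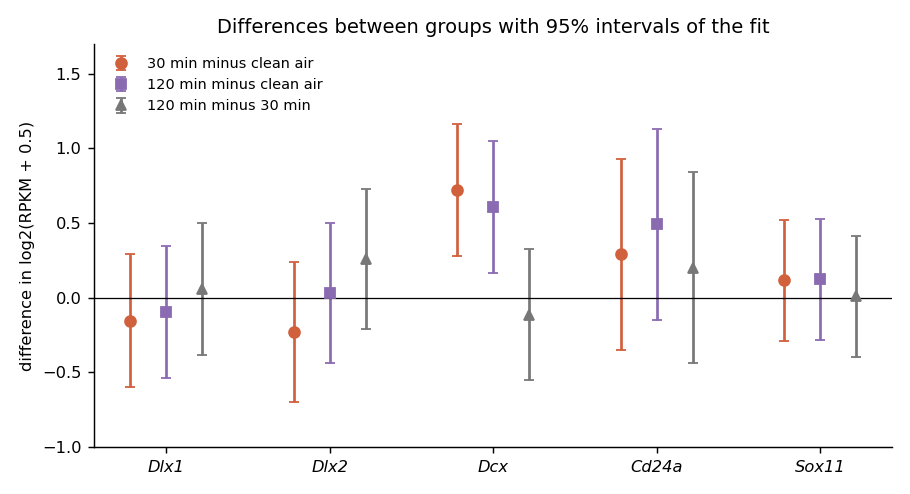
Differences between group means in log2(RPKM + 0.5) for each gene, with 95% intervals from the limma fit. The intervals of Dcx against clean air (0.28 to 1.16 at 30 min and 0.17 to 1.05 at 120 min) lie above 0, and those of the other genes cross 0.

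The mixture of members within a bulb differed between mice. The ratio of Dcx to Dlx1 was 0.161, 0.0715 and 0.0753 in clean air, 0.196, 0.184 and 0.154 at 30 min and 0.190, 0.152 and 0.134 at 120 min. Clean air mice 2 and 3 had the lowest ratios and clean air mouse 1 lay among the exposed mice. In clean air mouse 1 both Dlx genes were below their group means, by -0.41 and -0.37 on the log2 scale, while Dcx was 0.33 above. In clean air mouse 2 Dlx1, Dlx2, Cd24a and Sox11 were above their means, by 0.22, 0.45, 0.50 and 0.24, and Dcx lay at -0.19.

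**Figure D4:**
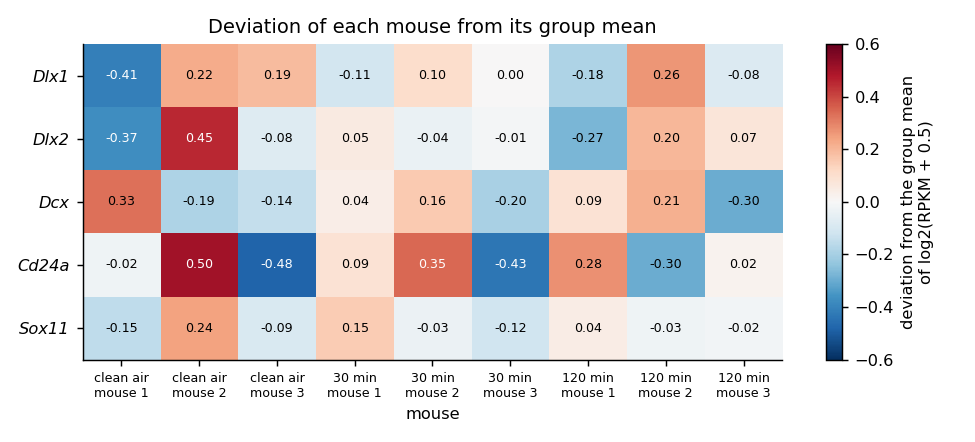
Deviation of each mouse from its group mean in log2(RPKM + 0.5), with genes in rows and mice in columns; red is above and blue below the mean. Dlx1 and Dlx2 take the same colour in clean air mice 1 and 2 and in mice 1 and 2 at 120 min, and Dcx takes the opposite colour in both clean air mice.

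Among the 10 pairs of members, Dlx1 and Dlx2 varied together most closely over the 9 mice, with a Pearson r of 0.746 (exact permutation p = 0.0219, adjusted over the 10 pairs 0.129) and a Spearman rho of 0.65 (exact permutation p = 0.0666, adjusted 0.484). Without clean air mice 2 and 3, the farthest from the median of Dlx1, r was 0.724, and within groups it was 0.763. Sox11 and Cd24a had an r of 0.733 (exact permutation p = 0.0259, adjusted 0.129) and a rho of 0.60 (exact permutation p = 0.0968, adjusted 0.484). Without clean air mice 1 and 3 their r was 0.504, and within groups it was 0.680.

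Dcx had a negative r with both Dlx genes, -0.413 with Dlx1 (exact permutation p = 0.267) and -0.434 with Dlx2 (exact permutation p = 0.238), both adjusted 0.445, and -0.339 and -0.476 within groups. Both negative values rest on clean air mice 2 and 3, without which they were 0.573 and 0.1003. The other 6 pairs had an r between -0.208 and 0.471, and none of the 10 pairs passed adjustment.

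The genes whose levels followed each member most closely over the 9 mice were picked from 12780 by the highest Pearson r and are given as a description, without a test. For Dcx they were Cadps (0.981), Akap6 (0.970) and Myo5a (0.963), whose longest transcripts are 7857, 14847 and 11702 nt. Cadps is a factor for release from dense core vesicles, Akap6 an anchor of protein kinase A and Myo5a an actin motor. For Dlx1 they were Fip1l1 (0.956), 2200002D01Rik (0.946) and Ypel4 (0.944), and for Dlx2 1500034J01Rik (0.923), Fbs1 (0.919) and Zfp689 (0.904). For Cd24a they were Gmeb2 (0.937), Tmem55a (0.919) and Srr (0.909), and for Sox11 Aoc2 (0.934), Tekt5 (0.922) and Mtcp1 (0.886). No gene appeared for more than 1 member.

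Other genes linked to the lineage or to its surroundings were read from lists. Some, such as Reln, are made by other cells, so in whole bulbs their differences cannot be assigned to new neurons. Of 15 transcription factors of interneuron fate, 10 had rows and all 10 were tested, with positive differences for 4 at 30 min and 5 at 120 min against clean air and medians of -0.02 each. None reached an unadjusted p under 0.05 in any comparison. The most abundant were the homeodomain genes Meis2, at 174 ± 31.1, 200.5 ± 25.1 and 192 ± 17.6 RPKM in the order clean air, 30 min and 120 min, and Pbx3, at 91.9 ± 30.0, 111 ± 16.8 and 102 ± 21.1. Dlx5 and Dlx6, relatives of the members named after their values were seen, averaged 81.0 ± 30.7, 67.1 ± 13.0 and 67.0 ± 23.1 RPKM, and 46.6 ± 10.9, 39.7 ± 5.55 and 35.9 ± 2.16. All groups of Dlx5 overlapped, as did those of Dlx1 and Dlx2, and for Dlx6 the 120 min mice lay below the clean air mice (limma adjusted p = 0.590). Sall3 went the other way, with the 120 min mice above the clean air mice (0.23, limma adjusted p = 0.675). Of the 10 genes, 1 was thus higher and 1 lower without overlap at 120 min, against 13.1% of all genes in either direction.

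Genes of the migratory cytoskeleton and of adhesion, to which Dcx is related by function, had mostly positive differences. Of 18 named, 17 had rows and were tested, and 15 were positive at 30 min and 15 at 120 min against clean air, with medians of 0.18 and 0.21. Over all tested genes 61.8% and 53.9% were positive. An unadjusted p under 0.05 was reached by 1 of the 17 at 30 min, near the 5.92% of all genes, and by 3 at 120 min (9.57% of all genes), all positive, and 0 of 17 passed adjustment in limma. Map1b, another protein that binds microtubules, averaged 57.0 ± 19.98, 91.4 ± 13.6 and 109 ± 20.5 RPKM. Its differences from clean air were 0.74 (limma adjusted p = 0.790) and 0.98 (limma adjusted p = 0.339), and neither exposed group overlapped the controls.

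Dclk1, the kinase most like doublecortin, averaged 125 ± 33.9, 167 ± 38.2 and 191 ± 21.6 RPKM and was 0.64 above clean air at 120 min (limma adjusted p = 0.422). Dpysl3, a protein of growth cones, was 0.52 above clean air at 120 min (limma adjusted p = 0.463). St8sia4, which adds polysialic acid to the adhesion molecule of neuroblasts, was near 1 RPKM and was -0.74 at 120 against 30 min (limma adjusted p = 0.999). The most abundant gene of the list was Tubb3, the neuronal tubulin, at 401 ± 85.1, 423 ± 50.3 and 463 ± 81.1 RPKM, with all groups overlapping. Crmp1 was at 199 ± 15.002, 212 ± 33.1 and 207 ± 27.9 RPKM, also overlapping.

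Of the ligands and receptors that guide or detach neuroblasts, all 24 had rows and 23 were tested, Gdnf falling under the filter. Differences from clean air were positive for 17 at 30 min and 21 at 120 min, with medians of 0.29 and 0.24. Among all genes with a transcript of 4 to 8 kb, 71.5% and 66.0% were positive, and among those over 8 kb 82.4% and 82.5%, and most genes of this list are that long. An unadjusted p under 0.05 was reached by 4 of the 23 at 30 min (5.92% of all genes) and 7 at 120 min (9.57%), all positive, and 0 of 23 passed adjustment in limma. Groups did not overlap for 8 of 23 at 30 min (11.4% of all genes) and 10 of 23 at 120 min (13.1%).

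Erbb4, a neuregulin receptor of migrating neuroblasts, averaged 3.07 ± 1.00, 5.39 ± 0.865 and 6.09 ± 0.581 RPKM, with differences of 0.76 (limma adjusted p = 0.749) and 0.92 (limma adjusted p = 0.339). Robo2, a receptor of Slit repellents, averaged 18.0 ± 2.92, 25.1 ± 1.94 and 27.1 ± 3.05 RPKM, with differences of 0.48 (limma adjusted p = 0.790) and 0.59 (limma adjusted p = 0.342). Reln, which mitral cells secrete and which detaches neuroblasts from their chains, averaged 33.2 ± 12.6, 48.9 ± 7.42 and 58.9 ± 1.55 RPKM, with differences of 0.62 (limma adjusted p = 0.818) and 0.90 (limma adjusted p = 0.345). In all 3 genes every exposed mouse lay above every clean air mouse; they are named for their low unadjusted p, which goes with such a separation.

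Others of the list followed different courses. Itga6, a laminin receptor subunit, was highest at 30 min, at 4.69 ± 0.691, 7.12 ± 0.0351 and 6.00 ± 0.511 RPKM (0.56 at 30 min, limma adjusted p = 0.743). Prokr2, the prokineticin receptor that neuroblasts need to reach the bulb's layers, averaged 7.58 ± 1.79, 6.88 ± 1.26 and 12.01 ± 1.91 RPKM. It was 0.65 above clean air at 120 min (limma adjusted p = 0.391) and 0.76 above 30 min (limma adjusted p = 0.999). Igf1, a growth factor for the exit of neuroblasts, was 1.023 above clean air at 120 min (8.46 ± 4.05 against 16.5 ± 2.02 RPKM, limma adjusted p = 0.361). Ntrk2, the receptor of brain-derived neurotrophic factor and second in abundance to Reln, averaged 35.1 ± 7.33, 43.6 ± 3.60 and 47.1 ± 3.70 RPKM with overlapping groups. Its difference from clean air at 120 min was 0.43 (limma adjusted p = 0.463).

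Transcript length moved with the cues and receptors as it did with Dcx. The 17 cytoskeletal genes had a median of 3413 nt, near the 3427 nt of all genes with a length, and 8 of them are over 4 kb. Of the 23 tested cues and receptors, 20 have a longest transcript over 4 kb, against 38.8% of all tested genes with a length. Map1b, Erbb4, Robo2 and Reln are 11808, 12037, 8591 and 11699 nt. With the trend with length removed, the medians of the cues and receptors were 0.11 at 30 min and 0.09 at 120 min, with 14 and 18 of 23 positive. Those of the cytoskeletal genes were 0.15 and 0.14, with 14 of 17 positive at both times. At 30 min Map1b was then 0.47 above clean air, Erbb4 0.49, Robo2 0.27 and Reln 0.36 (limma adjusted p = 0.937 each), and Robo2 and Reln no longer had an unadjusted p under 0.05. At 120 min they were 0.65, 0.58, 0.34 and 0.57 above (limma adjusted p of 0.552 to 0.619, unadjusted 0.00976 to 0.0357).

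**Figure D5:**
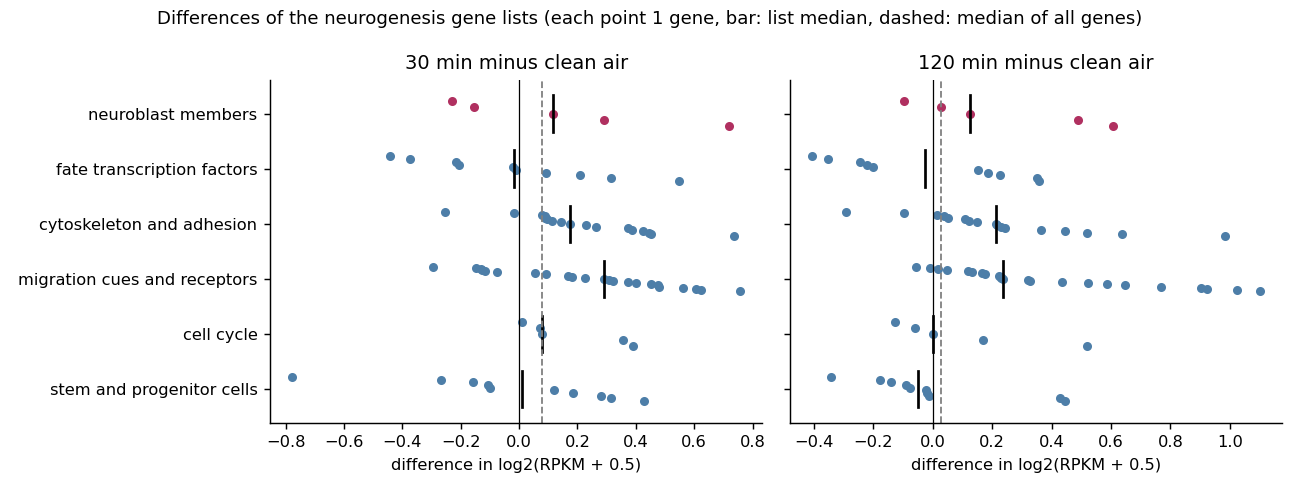
Differences from clean air in log2(RPKM + 0.5) for every tested gene of the lists, at 30 min (left) and 120 min (right); black bars are list medians and the dashed line is the median of all genes. The cytoskeleton and cue lists have medians of 0.18 and 0.29 at 30 min, to the right of the dashed line at 0.08, and the fate factors (-0.02) lie to its left.

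Genes of the cell cycle were low. All 14 had rows and 5 were tested, with 9 under the filter, and of the 5 tested 5 were positive at 30 min and 3 at 120 min against clean air, with medians of 0.08 and 0.00. Mki67, Top2a and Ccnb1, defining markers of proliferation named after their values were seen, ranged over 0.02 to 0.19, 0.02 to 0.25 and 0 to 0.04 RPKM. Ccna2, also under the filter, was at 0.39 to 1.42 RPKM, and the replication genes Mcm2, Mcm5 and Mcm6 were at 1.44 to 2.85, 1.87 to 4.13 and 2.31 to 4.91 RPKM. Pcna, which is also made outside division, averaged 8.55 ± 2.30, 8.92 ± 1.82 and 9.82 ± 3.07 RPKM. Ccnd2 averaged 6.73 ± 1.47, 8.70 ± 1.46 and 9.75 ± 1.06 RPKM (0.52 at 120 min, limma adjusted p = 0.452), and Mcm6 was -0.52 at 120 against 30 min (limma adjusted p = 0.999).

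Of 10 genes of stem and progenitor cells, all tested, 5 were positive at 30 min and 2 at 120 min, with medians of 0.01 and -0.05. Hes5, a Notch target of progenitors and astrocytes, is named for its low unadjusted p at 30 min against clean air. It was 27.92, 39.7 and 29.74 RPKM in the controls, 18.6, 17.56 and 19.42 RPKM at 30 min and 28.18, 30.78 and 36.43 RPKM at 120 min. All 3 mice at 30 min lay below the other 6, with differences of -0.78 from clean air (limma adjusted p = 0.383) and 0.76 between 120 and 30 min (limma adjusted p = 0.714). It was the 1 gene of 10 without overlap at 30 min against clean air, near the 11.4% of all genes. Its longest transcript is 1273 nt, and with the trend with length removed the difference at 30 min was -0.76 (limma adjusted p = 0.330). The most abundant of the list, the glial lipid carrier Fabp7 and the intermediate filament Vim, averaged 192 ± 88.7, 219 ± 49.3 and 173 ± 50.6 RPKM, and 56.3 ± 11.9, 50.1 ± 7.47 and 52.1 ± 1.67, with overlapping groups.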

How the data were processed

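Polyadenylated RNA of olfactory bulbs from 9 mice in 3 groups was analysed from RPKM values made and deposited by the authors. Reads were aligned with Bowtie to mm9, per the submitters' processing notes. Not given in the sources used here are the version, the annotation, the counting rule and whether strand was used. Columns were matched to mice by the sample descriptions.

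The 12780 genes whose mean reached 1 RPKM entered 1 limma fit of 3 groups on log2(RPKM + 0.5) values (limma 3.58.1, R 4.3.3, lmFit and eBayes with trend), two-sided, with Benjamini-Hochberg adjustment over all genes and a threshold of 0.05. A fold change on this scale understates the change of low genes. The p-values measure the spread between mice, with no term for the mouse numbers shared between groups. Genes named beyond the members were, in each list, the 2 most abundant, at most 6 with an unadjusted p under 0.05 in a pairwise comparison, and the 3 most alike to each member. The members and lists were chosen with earlier results of these data known.

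Depth was recovered from 476 short RNAs, at lengths 34 nt under the annotated ones, where 86.1% to 93.0% of values were whole within 0.05. It gives floors for counting error only. Promoter windows came from RefSeq, and transcript lengths from GENCODE M21 for 12132 genes (94.9%). The fit and the depth recovery were tested on simulated data. Correlations used Python 3.11.15 and scipy 1.17.1. Alternatives were other pseudocounts, filters and scalings, fits of 2 groups, a block for mouse number, leaving out each mouse, and removal of the length trend (loess, span 0.5), which was chosen after seeing the data.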

Additional observations from a re-analysis of the deposited data

How the results depend on the processing

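The 15 differences of the members were recomputed under 18 alternatives, 267 values in all, and 251 kept their sign. None of the 267 passed adjustment in limma, and the lowest adjusted p of a member was 0.310 at 30 min against clean air, 0.181 at 120 min against clean air and 0.810 between them. Dcx stayed positive at 30 min (0.50 to 0.89) and at 120 min against clean air (0.34 to 0.77) under all 18. Without the trend with transcript length Sox11 was -0.0897 and -0.117 against clean air and -0.0269 between 120 and 30 min. With median ratio scaling Dlx2 was -0.0106 at 120 min against clean air. The cause of these changes of sign was not tested for Sox11 or Dlx2. Leaving out 1 mouse at a time gave both signs for Dlx1 (-0.301 to 0.0156) and Dlx2 (-0.157 to 0.255) at 120 min against clean air. It also did so between 120 and 30 min for Dlx1 (-0.0741 to 0.1504), Dcx (-0.219 to 0.0359), Cd24a (-0.0157 to 0.374) and Sox11 (-0.0491 to 0.0849). Clean air mice also set the size of other differences: at 30 min Cd24a was 0.0503 without mouse 3 and 0.541 without mouse 2 of that group, and at 120 min 0.251 and 0.742. At 30 min Dlx1 was -0.359 without its mouse 1 and -0.0425 without its mouse 2, and Dlx2 -0.418 and -0.00547. Sox11 is not tested under a filter of 5 RPKM. Mouse numbers in the sample titles are shared between groups, and the labels do not say what a number marks. The sample codes behind the titles carry the same number in all 3 groups only for mouse 1. For mice 2 and 3 the code number is the same at 30 and 120 min and differs in clean air. The same-number pairs and the block for mouse number follow the titles, so for mice 2 and 3 the codes do not back the match with clean air. Of 9 same-number pairs, 7 correlated above 0.1 (0.0810 to 0.444). All 9 mice correlated best with their own number (different-number r -0.380 to 0.0865). Mice with the same number thus resembled each other, though only weakly for number 3 (r of 0.0810 to 0.147). The main fit, which has no block for number, left this resemblance out. The order of Dlx1 by mouse number was the same in all 3 groups, and the permutation tests of correlations treat the 9 mice as exchangeable. With the replicate block Dcx was 0.72 (limma adjusted p = 0.359) and 0.61 (limma adjusted p = 0.183) and 0 members were called. Over all genes, calls at 120 min against clean air depended on single mice. They went from 11 to 0 without mouse 2 of the clean air group and to 0 without mouse 3 of the 120 min group. Without mouse 1 or mouse 2 of the 120 min group they fell to 3, and without mouse 1 of the clean air group to 6. They also fell to 2 with only those 2 groups fitted and to 7 with a filter of 5 RPKM or without the length trend. A floor of 3 counts was 0.1004 to 0.419 RPKM for 1 kb, and all members lay above it.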
